A study of Mus musculus with 8 samples.

Results

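The Wnt, Notch, Hedgehog and BMP/TGF-beta pathways were followed through the differentiation of mouse oligodendrocyte progenitor cells (OPCs) into oligodendrocytes (OL). Members were the genes whose symbol begins with or equals the name of a Wnt ligand, Frizzled receptor, Dishevelled, Axin, Lef1, Sfrp or Dkk, of a Notch receptor, Jagged or Delta-like ligand, of Patched, Smoothened or a Gli factor, or of a BMP, a BMP, activin or TGF-beta receptor, a TGF-beta or a SMAD. This rule uses names only and found 65 of the 10987 transcripts measured, 1 for each gene, of which 25 belong to the Wnt, 7 to the Notch, 5 to the Hedgehog and 28 to the BMP/TGF-beta pathway. Because it matches by name it also takes in Bmp2k, Tgfb1i1 and Tgfbrap1, which are neither ligands nor receptors.

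Ribosome footprints, the pieces of mRNA that a ribosome shields from nuclease, and fragmented total RNA were sequenced from each of 4 cultures, 2 of either cell type, which gives 8 libraries. All cells came from epiblast stem cells of the 129S/SvEv strain, through neural rosettes. OPCs were kept on poly-L-ornithine and laminin in DMEM/F12 with N2 Max, B27, 20 ng/mL bFGF and 20 ng/mL PDGFA. Oligodendrocytes were made from the same OPC replicates, after passages without bFGF, in a medium that shared DMEM/F12, N2 Max and B27 and held noggin and IGF-1 at 100 ng/mL each, NT3 at 10 ng/mL, T3 at 40 ng/mL and cyclic AMP at 10 uM, and were collected after about 3 days. Noggin is a secreted antagonist that binds BMP ligands, so the medium of the oligodendrocytes acts on one of the pathways described here. By the paper's methods for ribosome profiling, oligodendrocyte dishes were also seeded with more cells than OPC dishes of the same size. The effects of differentiation, noggin, IGF-1, NT3, T3, cyclic AMP, seeding density and the loss of bFGF and PDGFA cannot be told apart. These are cells made in vitro and no tissue was measured.

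Values are FPKM, fragments per kilobase of the transcript (RNA-seq) or of its coding sequence (footprints) and scaled to the mapped reads, so levels of different genes are per length. Estimated depth lay between 77.9 and 249 Mb aligned per library, with a possible factor of 2. In RNA-seq it was 241 and 166 Mb in OPCs and 120 and 77.9 Mb in oligodendrocytes. Oligodendrocyte RNA-seq replicate 2, the shallowest, listed 4 transcripts at 0 that had at least 20 FPKM in the other RNA-seq libraries, against 0 to 1 in each of those. Footprint replicate 2 of the oligodendrocytes stood apart. It listed 67 transcripts at 0 that had at least 20 FPKM in the other 3 footprint libraries, against 0 to 1 in each of those, and the footprint calls that were lost without it are named below. The sum of 7 oligodendrocyte markers in RNA-seq was 34.3 to 36.7 FPKM in OPCs and 3271 to 3743 in oligodendrocytes. Of the 6 OPC markers chosen, 4 were in the table, and their sum was 853 to 979 FPKM in OPCs and 1122 to 1144 in oligodendrocytes, so these genes do not mark the OPC libraries. Olig1 had the largest part of it, at 693 and 571 FPKM in OPCs. Pdgfra had 53.5 and 31.3 FPKM in OPCs and 105.5 and 100.6 in oligodendrocytes, and Sox10 23.4 and 12.5 against 100.6 and 87.6. Olig1 and Ptprz1 overlapped between groups. The sum of 3 proliferation genes was 171 to 232 FPKM in OPCs and 38.6 to 44.6 in oligodendrocytes. The astrocyte marker Gfap had 0.155 and 0 FPKM in OPCs and 14.2 and 2.11 in oligodendrocytes. The 4 astrocyte markers in the table summed to 170 to 223 and 226 to 302 FPKM. Aldoc, which overlapped between groups, held most of that sum. Slc1a2 had 13.5 and 10.6 FPKM in OPCs and 47.6 and 36.5 in oligodendrocytes, and Aldh1l1 was also higher there. The 6 neuronal markers in the table summed to 118 to 132 and 186 to 200 FPKM, mostly from Map2. Dcx had 8.17 and 6.46 FPKM in OPCs and 24.9 and 27.9 in oligodendrocytes. Tubb3, Map2 and Syt1 were also higher there, while Rbfox3 and Snap25 overlapped between groups. Of 5 microglial markers 2 were in the table, at or near 0. The part of these other cells in the differences below was not tested.

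In the Wnt pathway secreted Wnt ligands bind Frizzled receptors, Dishevelled passes the signal on and Axin holds the complex that destroys beta-catenin, which otherwise enters the nucleus and acts with TCF/LEF factors. Notch is a receptor cut after it meets a Delta-like or Jagged ligand on a neighbouring cell, and it turns on Hes and Hey repressors, while Hedgehog ligands relieve the hold of Patched on Smoothened and so act on Gli factors. BMP and TGF-beta ligands bind pairs of receptor kinases that phosphorylate SMADs. In the oligodendrocyte lineage these pathways are best known as signals that keep progenitors from maturing, in the case of Wnt, Notch and BMP, and, for Hedgehog, as one that specifies progenitors in the ventral neural tube.

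Promoter sequence is shown for 4 members that differed between the cell types: the Wnt receptors Fzd1 and Fzd7, which were lower in oligodendrocytes, and the ligands Bmp4 and Tgfb2, which were higher. Each window is the 250 bases before a RefSeq transcription start on GRCm38.p6, read 5′ to 3′ on the strand of the gene, and holds no annotated exon of the gene. The windows lie at chr5:4758217-4758466 (Fzd1, minus strand), chr1:59481897-59482146 (Fzd7, plus strand), chr14:46390670-46390919 (Bmp4, minus strand) and chr1:186705990-186706239 (Tgfb2, minus strand). Capitals mark the letters of 6 motifs searched on both strands, of which 3 occur here: CTTTGA of the TCF/LEF factors, TATAAA of the core promoter (the TATA box) and the E-box CACGTG.
Fzd1: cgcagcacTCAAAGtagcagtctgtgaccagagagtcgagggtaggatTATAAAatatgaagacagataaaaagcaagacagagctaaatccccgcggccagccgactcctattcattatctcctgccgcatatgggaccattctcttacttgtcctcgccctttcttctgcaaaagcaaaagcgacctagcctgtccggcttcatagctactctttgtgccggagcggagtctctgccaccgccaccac
Fzd7: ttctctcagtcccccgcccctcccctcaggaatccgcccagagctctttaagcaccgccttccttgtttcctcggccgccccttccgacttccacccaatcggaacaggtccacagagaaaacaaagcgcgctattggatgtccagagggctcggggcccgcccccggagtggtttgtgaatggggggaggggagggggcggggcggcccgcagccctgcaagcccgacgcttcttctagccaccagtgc
Bmp4: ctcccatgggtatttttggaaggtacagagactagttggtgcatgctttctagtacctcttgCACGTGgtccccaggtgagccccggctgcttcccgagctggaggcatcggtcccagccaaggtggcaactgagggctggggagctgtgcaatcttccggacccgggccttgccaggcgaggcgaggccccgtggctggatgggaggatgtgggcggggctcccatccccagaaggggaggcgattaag
Tgfb2: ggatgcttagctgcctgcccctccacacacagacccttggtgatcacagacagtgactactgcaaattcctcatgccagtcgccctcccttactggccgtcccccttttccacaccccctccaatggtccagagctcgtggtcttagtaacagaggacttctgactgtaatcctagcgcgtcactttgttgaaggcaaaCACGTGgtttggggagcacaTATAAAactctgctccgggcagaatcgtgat

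Of the 65 members, 51 had a window in the RefSeq table, with a median GC content of 68.4% against 52.4% over all 32536 windows. For 34 of the 51 the RefSeq start lay within 100 bases of the start of the measured transcript. For Bmpr2 it lay 879 bases away. Some windows that are not printed hold exon sequence, and those of Acvr1, Bmpr2, Dll3 and Fzd10 lie wholly in exons. The TCF/LEF letters were in 3 of the 51 (5.88%), Wnt11, Wnt5b and Fzd1, and in 13.9% of all windows. The RBPJ letters TGGGAA, of the factor that acts with Notch, were in 8 (15.7%) and in 21.6% of all windows, and the GLI letters TGGGTGGTC were in none and in 0.218% of all. The GC-rich letters GGCGCC, a site of SMAD1/5, were in 15 (29.4%) and in 9.65% of all windows, beside the difference in GC content. The E-box was in 5 of the 51 (9.80%) and in 6.04% of all. They were Bmp4 and Tgfb2, which rose, Fzd9, which fell, Dvl2, which did not pass, and Wnt9a, which was not tested. The TATA box was in 4 (7.84%) and in 12.3% of all. Both of these motifs were added after the sequences had been seen. The window of Tgfb2 is the one printed here with a TATA box close to the start, 31 bases before it. A match is a description of letters, and binding was not measured.

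In RNA-seq, 16 of the 41 members tested differed between the cell types, 13 lower and 3 higher in oligodendrocytes (limma, adjusted p under 0.05). Over all 8346 transcripts tested 33.2% differed, 20.2% lower and 13.0% higher. Among members 31.7% were lower and 7.32% higher. Differences are given as log2 of oligodendrocytes over OPCs after 0.1 was added to each FPKM, and their median was -0.41 over the members and -0.23 over all transcripts. Differences in a level per culture can come from fewer cells of a type or from less RNA per cell, and these cannot be told apart in bulk samples. Rescaling the libraries by median ratios moved the median over all transcripts to -0.05, moved the share of higher calls among all calls from 39.1% to 51.5%, and left 11 members called, 8 lower and 3 higher. The members below the minimum of 1 FPKM in RNA-seq numbered 24, with means of at most 0.540 FPKM.

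In footprints 7 of 42 members tested differed, 5 lower and 2 higher, which is 11.9% and 4.76%. Of all 8342 transcripts 23.6% differed, 10.8% lower and 12.8% higher, so that the share of lower members was close to that of all transcripts. The median was -0.49 over the members and -0.16 over all transcripts. Each of these 7 members also differed in RNA-seq and in the same direction. They were Fzd2, Fzd7, Fzd9, Fzd10 and Bmp7, which fell, and Bmp4 and Tgfb2, which rose.

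These calls rest on few libraries. With 2 cultures per group, groups that do not differ would separate fully with a probability of 0.333. The share of all transcripts whose groups separate was not computed, so a lack of overlap is given here as description only. Without OPC RNA-seq replicate 1 or 2, 1 and 2 of the members were called, Bmp4 in both cases and Tgfb1 in the second, and without oligodendrocyte replicate 1 or 2 there were 15 and 11. Without OPC footprint replicate 1 or 2, 0 members were called (limma, 7 and 5 at an unadjusted p under 0.05), without oligodendrocyte footprint replicate 1 there were 14 (2 higher and 12 lower), and without replicate 2, which stood apart, 4, of which Wnt3 and Bmp4 were higher and Fzd9 and Fzd10 lower, while the footprint calls of Fzd2, Fzd7, Bmp7 and Tgfb2 were lost. With all libraries kept and other settings changed, Fzd1, Fzd2, Fzd4, Fzd7, Fzd9, Fzd10, Jag1, Smo, Smad7 and Bmp4 stayed called in RNA-seq wherever they were tested. The RNA-seq calls of Axin2, Sfrp1 and Wnt7a were lost with a pseudocount of 0.01, without the minimum, with median-ratio scaling and without the variance trend, and those of Gli3, Bmp7 and Tgfb2 under 2 of these settings each.

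**Figure D1:**
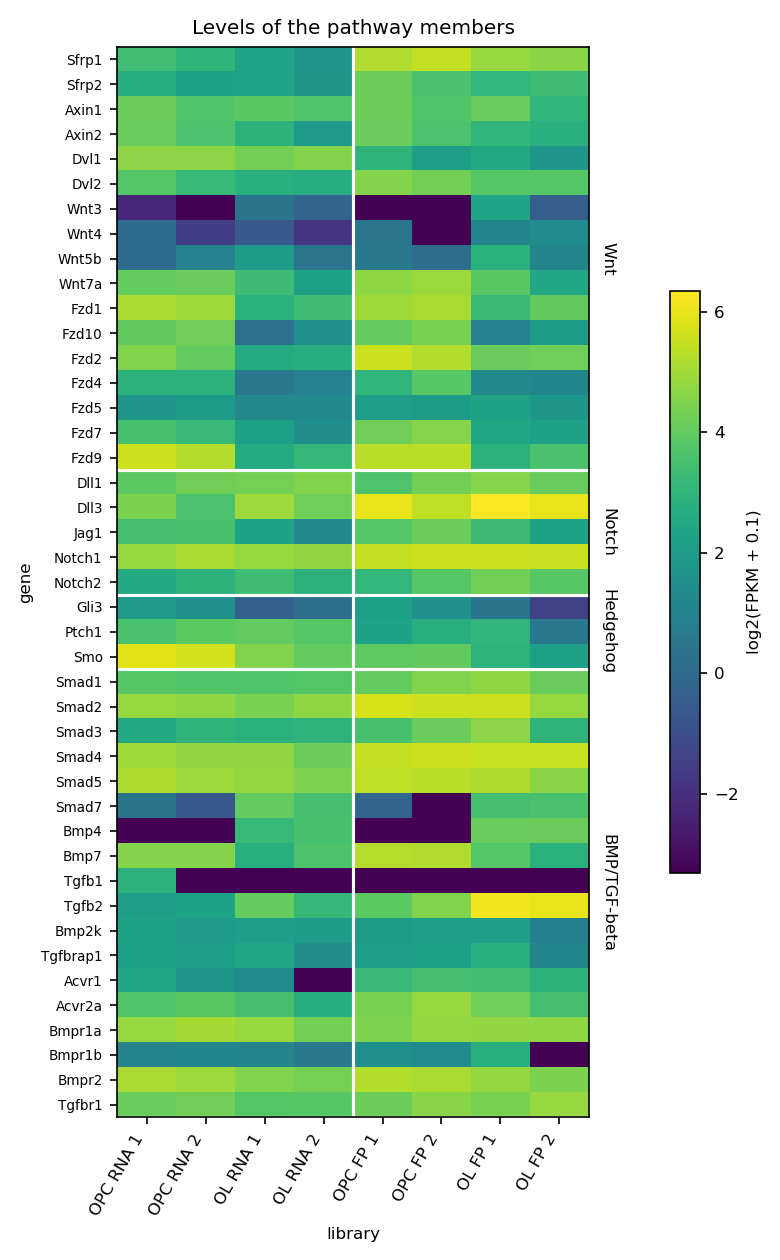
Heat map of the 43 members tested in either kind of library (rows, grouped by pathway) in the 8 libraries (columns), with colour giving log2(FPKM + 0.1). Most Frizzled rows darken from OPC to OL in RNA-seq and in footprints (FP), while Bmp4 and Smad7 brighten and the rows of Notch1, Smad4 and Bmpr1a keep about 1 colour within each kind of library.

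The Frizzled receptors made up the largest group of falls. Of the 7 tested, 6 fell in RNA-seq (85.7%) and 4 in footprints (57.1%), with none higher. Over all transcripts 20.2% were lower in RNA-seq and 10.8% in footprints. The median log2 difference of the 7 receptors was -1.95 in RNA-seq and -2.11 in footprints. Fzd9 was the most abundant in OPC RNA-seq. Its RNA had 48.7 and 37.6 FPKM in the OPC replicates and 6.13 and 8.67 in oligodendrocytes, and its footprints 40.3 and 40.8 FPKM against 7.36 and 11.8. Every oligodendrocyte value lay below every OPC value of the same kind, with log2 differences of -2.54 ± 0.26 (SE, n = 2 cultures per group, limma adjusted p = 0.00220) in RNA-seq and -2.11 ± 0.31 (adjusted p = 0.0193) in footprints.

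Fzd10 fell the most. It had 15.7 and 18.9 FPKM in OPC RNA-seq and 1.15 and 2.84 in oligodendrocytes, a log2 difference of -3.17 ± 0.46 (adjusted p = 0.00592). Its footprints went from 16.3 and 21.2 FPKM to 1.75 and 3.79, a log2 difference of -2.80 ± 0.54 (adjusted p = 0.0347). Its levels overlapped those of Fzd2 in OPC RNA-seq and lay below them in oligodendrocytes.

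Fzd2 had 22.9 and 16.2 FPKM in OPC RNA-seq against 6.12 and 6.38, and 47.7 and 37.5 FPKM in OPC footprints against 17.4 and 18.5. Its log2 differences were -1.61 ± 0.26 (adjusted p = 0.00807) and -1.23 ± 0.21 (adjusted p = 0.0261). Its footprints were thus the highest of the Frizzled receptors in oligodendrocytes. Fzd7 fell from 11.5 and 9.13 FPKM to 4.37 and 2.74 in RNA-seq (log2 -1.54 ± 0.35, adjusted p = 0.0220) and from 19.0 and 24.1 to 5.41 and 4.26 in footprints (log2 -2.13 ± 0.35, adjusted p = 0.0229). With the replicate number as a block, the footprint difference of Fzd7 missed the threshold (adjusted p = 0.0524).

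Fzd1 and Fzd4 fell in RNA-seq and just missed the threshold in footprints. Fzd1 RNA had 35.0 and 31.5 FPKM in OPCs and 7.14 and 10.1 in oligodendrocytes (log2 -1.95 ± 0.24, adjusted p = 0.00367), and its footprints 31.1 and 34.7 FPKM against 9.67 and 15.9 (log2 -1.40 ± 0.33, adjusted p = 0.0506). Fzd4 RNA had 7.36 and 7.34 FPKM against 1.41 and 1.85 (log2 -2.12 ± 0.37, adjusted p = 0.00944), and its footprints 8.14 and 14.2 FPKM against 2.40 and 2.07 (log2 -2.22 ± 0.53, adjusted p = 0.0541). For both genes the groups did not overlap in either kind of library.

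Fzd5 was the one receptor tested that passed in neither kind. It had 3.07 and 3.87 FPKM in OPC RNA-seq and 2.22 and 2.34 in oligodendrocytes (log2 -0.58 ± 0.40, adjusted p = 0.303), and its footprints overlapped, at 4.15 and 3.76 FPKM against 4.70 and 3.39 (log2 0.02 ± 0.53). Its exons share 1233 bases with a transcript of the opposite strand, and the counting is not stated to use strand. Fzd6 was below the minimum, at most 0.236 FPKM in RNA-seq, and was listed at 0 in all 4 footprint libraries.

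**Figure D2:**
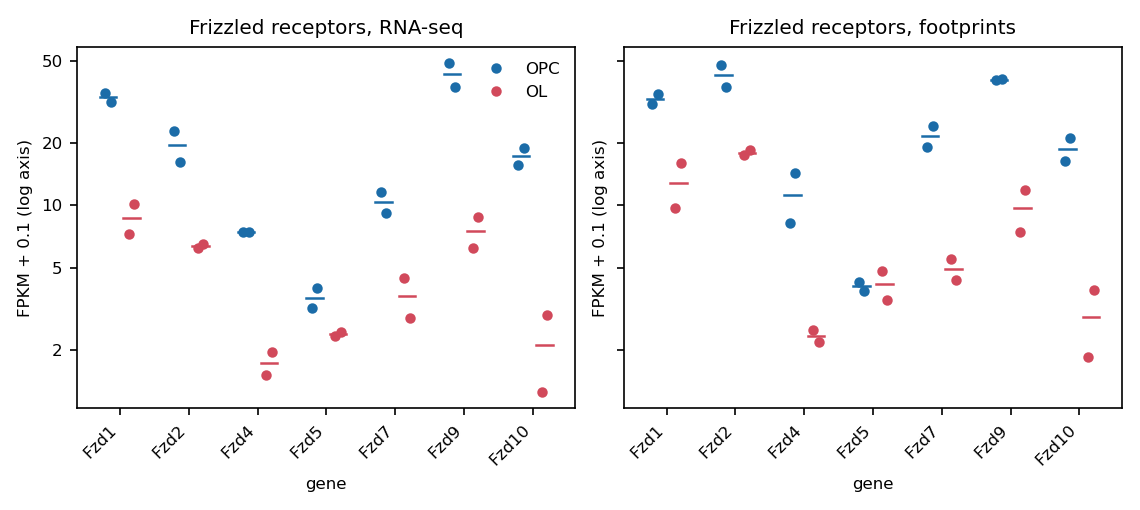
Levels of the 7 tested Frizzled receptors in RNA-seq (left) and footprints (right), as FPKM + 0.1 on a log axis, with a point for each culture and a bar at the mean of 2. Fzd9 is the highest OPC receptor in RNA-seq at 37.6 to 48.7 FPKM, and OPC and OL points separate for every receptor but Fzd5 in footprints. With 2 cultures per group, groups that do not differ would separate with a probability of 0.333, and the share of all transcripts that separate was not computed.

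Most of the falling receptors have a gene structure that the rule did not use. Fzd1, Fzd2, Fzd7, Fzd9 and Fzd10 each consist of 1 exon in Gencode vM21, while Fzd4, which also fell, and Fzd5, which did not pass, have 2 exons. Fzd9 lies at chr5:135248938-135251230 and Fzd10 at chr5:128600844-128604093, on opposite strands, and Fzd1 at chr5:4753839-4758035. Of the 241 single-exon transcripts tested in RNA-seq 32.4% were lower in oligodendrocytes, and of the 8105 with more exons 19.9%, and in footprints the shares were 26.8% of 246 and 10.4% of 8096. These shares describe all such transcripts, among which the Frizzled receptors are counted.

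Of 9 Wnt ligands in the table, 2 passed the minimum in RNA-seq and 4 in footprints. Wnt7a was by far the most abundant, and the sole ligand to differ. Its RNA had 16.6 and 17.4 FPKM in OPCs and 9.75 and 4.44 in oligodendrocytes (log2 -1.35 ± 0.40, limma adjusted p = 0.0462), and its footprints 26.1 and 30.0 against 14.6 and 5.44 FPKM (log2 -1.64 ± 0.55, adjusted p = 0.110). The groups did not overlap. Wnt5b had 0.955 and 1.87 FPKM in OPC RNA-seq and 3.96 and 1.29 in oligodendrocytes, which overlap (log2 0.72 ± 0.71, adjusted p = 0.465).

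Wnt3 was listed at 0 in both OPC footprint libraries and had 4.90 and 0.654 FPKM in those of oligodendrocytes, with RNA of 0.114 and 0 against 1.26 and 0.788 FPKM. It did not pass in footprints (adjusted p = 0.136), and it did when either oligodendrocyte footprint library was left out. Wnt4 had 1.28 and 0 FPKM in OPC footprints and 2.03 and 2.51 in oligodendrocytes (adjusted p = 0.301). Wnt2b, Wnt6, Wnt8b, Wnt9a and Wnt11 stayed below the minimum in both kinds.

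Among the secreted Frizzled-related proteins, which bind Wnt ligands outside the cell, Sfrp1 fell in RNA-seq from 10.5 and 7.92 FPKM to 4.96 and 3.30 (log2 -1.15 ± 0.34, adjusted p = 0.0484). Its footprints were several times higher than its RNA in each culture, at 36.4 and 44.3 FPKM in OPCs and 29.3 and 24.4 in oligodendrocytes (log2 -0.59 ± 0.21, adjusted p = 0.123). The ratio of footprint to RNA FPKM was 3.48 to 7.41 for Sfrp1, beside medians of 1.72 to 2.02 over all transcripts of a culture. Sfrp2 had 6.39 and 4.84 FPKM in OPC RNA-seq and 4.97 and 3.41 in oligodendrocytes, which overlap (adjusted p = 0.397). Sfrp5 was below the minimum.

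Axin2, a component of the destruction complex and a target gene of the pathway, was the one transducer that fell. Its RNA had 16.9 and 12.1 FPKM in OPCs and 7.54 and 3.71 in oligodendrocytes (log2 -1.42 ± 0.40, adjusted p = 0.0435, a call lost under 4 of the other settings with all libraries kept), and its footprints 17.5 and 12.0 against 8.05 and 6.87 FPKM (log2 -0.96 ± 0.36, adjusted p = 0.141). Its exons share 207 bases with a transcript of the opposite strand. Its relative Axin1 had 17.8 and 13.0 FPKM in OPC RNA-seq and 14.5 and 13.1 in oligodendrocytes (log2 -0.14 ± 0.24, adjusted p = 0.670), and the groups overlapped. Dvl2 had 13.7 and 8.71 FPKM against 7.03 and 6.43 (log2 -0.69 ± 0.31, adjusted p = 0.136). Lef1 was the one nuclear factor that the rule matched, with at most 0.129 FPKM in RNA-seq and 0 in all footprint libraries. The wider list used below held 13 other Wnt nuclear factors, of which 10 were in the table and 9 were tested. Of these, 1 was lower in RNA-seq, and 1 was higher and 1 lower in footprints.

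In the Notch pathway neither receptor tested passed in either kind of library. Notch1 RNA had 28.1 and 34.8 FPKM in OPCs and 28.8 and 26.6 in oligodendrocytes (log2 -0.18 ± 0.19, limma adjusted p = 0.502), and its footprints 43.5 and 47.6 against 49.1 and 46.0 FPKM (log2 0.06 ± 0.15). Notch2 had 5.92 and 7.57 FPKM against 10.1 and 7.27 in RNA-seq (log2 0.35 ± 0.30, adjusted p = 0.402). Groups of both receptors overlapped, and Notch4 was below the minimum. The exons of Notch1 share 1068 bases with a gene on the opposite strand.

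The ligand Jag1 fell in RNA-seq. It had 10.9 and 11.4 FPKM in OPCs and 4.61 and 2.28 in oligodendrocytes (log2 -1.75 ± 0.40, adjusted p = 0.0222), and its footprints had 13.8 and 17.96 against 9.72 and 4.78 FPKM (log2 -1.20 ± 0.48, adjusted p = 0.158). The Delta-like ligands had values that leaned the other way without passing the test. Dll1 RNA had 14.9 and 18.9 FPKM in OPCs and 19.9 and 22.6 in oligodendrocytes (log2 0.33 ± 0.22, adjusted p = 0.274). Dll3, the Delta-like ligand that acts inside the cell, had the highest footprint levels of the Notch members except in OPC replicate 2, where Notch1 lay above it. Its footprints had 64.0 and 43.1 FPKM in OPCs and 81.5 and 64.2 in oligodendrocytes (log2 0.46 ± 0.26, adjusted p = 0.274), and its RNA overlapped between groups. Dll4 was below the minimum in both kinds.

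In the Hedgehog pathway Smo, the receptor-like transducer, was the most abundant of all 65 members in OPC RNA-seq. It had 62.4 and 51.9 FPKM in OPCs and 22.6 and 16.1 in oligodendrocytes (log2 -1.57 ± 0.23, limma adjusted p = 0.00566), and its footprints had 15.4 and 15.8 against 7.75 and 4.36 FPKM (log2 -1.41 ± 0.42, adjusted p = 0.0883). Gli3, which acts mostly as a repressor of Hedgehog targets, fell in RNA-seq from 3.68 and 2.99 to 0.697 and 1.04 FPKM (log2 -1.84 ± 0.52, adjusted p = 0.0414), with footprints of 4.31 and 3.05 against 1.25 and 0.265 FPKM (adjusted p = 0.174). Gli2 was below the minimum in both kinds, with 0.880 and 0.692 FPKM in OPC RNA-seq and 0.169 and 0.164 in oligodendrocytes.

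Ptch1, the Hedgehog receptor and itself a target gene, did not pass. Its RNA had 11.7 and 15.0 FPKM in OPCs and 16.3 and 13.7 in oligodendrocytes (log2 0.17 ± 0.24, adjusted p = 0.602). Its footprints had 4.66 and 6.51 against 8.08 and 1.36 FPKM, where the oligodendrocyte replicates lie on both sides of the OPC replicates.

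Members of the BMP/TGF-beta pathway included the 3 that rose. Bmp4 was listed at 0 in all 4 OPC libraries. In oligodendrocytes it had 8.85 and 11.6 FPKM in RNA-seq (limma adjusted p = 0.00212) and 17.02 and 17.48 in footprints (adjusted p = 0.0113), and no fold is given against a group at 0. It was the one member called in RNA-seq under every setting and with each library left out. Bmp4 lies at chr14:46383520-46390669 and its exons share 89 bases with a transcript of the opposite strand.

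Tgfb2 rose from 4.20 and 4.84 FPKM to 16.6 and 8.54 in RNA-seq (log2 1.38 ± 0.38, adjusted p = 0.0394) and from 15.0 and 22.7 to 73.1 and 63.9 in footprints (log2 1.88 ± 0.27, adjusted p = 0.0177). The groups did not overlap, and in oligodendrocyte footprints Tgfb2 was the most abundant member after the Notch ligand Dll3. Bmp7 went the other way. It had 23.5 and 23.3 FPKM in OPC RNA-seq and 6.64 and 12.3 in oligodendrocytes (log2 -1.36 ± 0.32, adjusted p = 0.0255), and 38.2 and 36.9 against 13.9 and 7.19 FPKM in footprints (log2 -1.90 ± 0.39, adjusted p = 0.0392). Bmp7 was thus the most abundant BMP ligand of the OPC libraries, and the RNA levels of Bmp4 and Bmp7 overlapped in those of oligodendrocytes.

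Tgfb1 had 7.43 FPKM in OPC RNA-seq replicate 1 and was listed at 0 in the other 7 libraries. Bmp2, Bmp3, Bmp8a and Bmp8b were below the minimum in both kinds, and Bmp8a and Bmp8b are near-identical copies whose reads the counting could split.

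No BMP, activin or TGF-beta receptor of the 6 tested passed in either kind of library (limma, 1 at an unadjusted p under 0.05 in RNA-seq and 1 in footprints). Bmpr2, the type II BMP receptor, had the lowest adjusted p. Its RNA had 34.3 and 30.2 FPKM in OPCs and 22.7 and 20.2 in oligodendrocytes (log2 -0.58 ± 0.18, adjusted p = 0.0558), and with the replicate number as a block it passed (adjusted p = 0.0457). Bmpr1a, a type I receptor, had 28.3 and 33.2 FPKM against 28.6 and 19.3 (log2 -0.38 ± 0.24, adjusted p = 0.273). Tgfbr1 had 17.1 and 18.8 FPKM against 13.9 and 14.3 (log2 -0.35 ± 0.20, adjusted p = 0.222), and Acvr2a 13.2 and 14.5 FPKM against 11.1 and 6.35 (adjusted p = 0.1401).

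Acvr1 RNA was listed at 0 in oligodendrocyte replicate 2, the RNA-seq library of lowest estimated depth. It had 5.01 and 3.13 FPKM in OPCs and 2.49 in oligodendrocyte replicate 1 (limma adjusted p = 0.174, and 0.0468 with the replicate block). Its footprints were at 8.997 and 11.22 FPKM in OPCs and 10.4 and 7.59 in oligodendrocytes, which overlap. Bmpr1b footprints were listed at 0 in oligodendrocyte replicate 2, the library that stood apart, and at 6.53 FPKM in replicate 1.

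Of the SMADs, Smad7 alone passed. Smad7 is an inhibitory SMAD that is itself induced by TGF-beta and BMP signals. Its RNA had 1.23 and 0.551 FPKM in OPCs and 16.2 and 11.1 in oligodendrocytes (log2 3.86 ± 0.49, limma adjusted p = 0.00394). Its footprints had 0.786 and 0 FPKM in OPCs and 11.1 and 11.9 in oligodendrocytes, which did not overlap and did not pass (adjusted p = 0.0587). The other inhibitory SMAD, Smad6, was at most 0.817 FPKM in RNA-seq.

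None of the SMADs that carry the signal passed in either kind of library. Smad1, a SMAD of the BMP branch, had 14.1 and 13.2 FPKM in OPC RNA-seq and 13.0 and 13.6 in oligodendrocytes (log2 -0.03 ± 0.21, adjusted p = 0.918). Smad5 had 35.5 and 30.6 against 27.4 and 22.3 FPKM (log2 -0.41 ± 0.20, adjusted p = 0.157). The shared partner Smad4 had 31.1 and 26.9 FPKM against 26.8 and 17.8 (log2 -0.40 ± 0.25, adjusted p = 0.257), and Smad2 of the TGF-beta branch 27.8 and 26.1 against 21.2 and 26.3 FPKM (log2 -0.19 ± 0.19, adjusted p = 0.488).

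**Figure D3:**
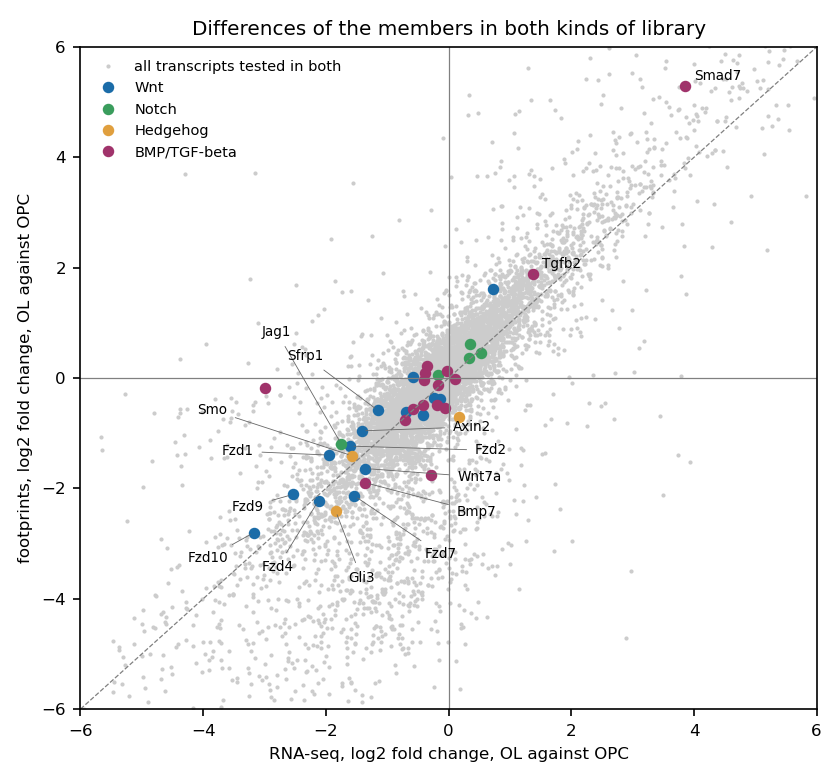
Log2 fold changes, OL against OPC on the log2(FPKM + 0.1) scale, in RNA-seq (x axis) and footprints (y axis) for 39 members (colours) and all 8056 transcripts tested in both (grey), with the dashed line at equal change. Named members passed in at least 1 kind, Bmp4 is left out as it is listed at 0 in OPCs, and 138 transcripts lie beyond the axes. The called members of the Wnt, Notch and Hedgehog pathways lie in the lower left, and Smad7 and Tgfb2 in the upper right.

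Target genes and other components of the 4 pathways came from a list of 205 genes, of which 142 were in the table and 120 passed the minimum in each kind of library. In RNA-seq 13 were higher and 22 lower in oligodendrocytes (limma, 10.8% and 18.3%, beside 13.0% and 20.2% of all transcripts), with a median log2 difference of -0.05. In footprints 14 were higher and 13 lower (11.7% and 10.8%, beside 12.8% and 10.8% of all transcripts), with a median of 0.02 against -0.16 over all transcripts, so that the shares called were close to those of all transcripts. Without OPC RNA-seq replicate 1 or 2, 4 and 3 of them were called in RNA-seq, and 0 were called in footprints without either OPC footprint library (limma, 29 and 23 at an unadjusted p under 0.05). Without oligodendrocyte footprint replicate 2, 14 were called in footprints, 7 higher and 7 lower. Of the genes named below, Ccnd1, Cntn1, Fstl1, Hes1, Lfng and Prickle1 kept their footprint call without that library, and Dact1, Dact3, Dtx3, Hes6, Id3, Itgav, Itgb8, Kif3a, Myc, Porcn, Tgif2, Zeb2 and Znrf3 lost it, while Hey2, Heyl, Id1 and Id2 were called there.

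Target genes moved in both directions. Ccnd1, the cyclin D1 gene and a Wnt target that also drives the cell cycle, had 118 and 151 FPKM in OPC RNA-seq and 22.0 and 19.4 in oligodendrocytes (log2 -2.69 ± 0.19, adjusted p = 0.000792), and 365 and 478 against 82.4 and 68.4 FPKM in footprints (log2 -2.47 ± 0.19, adjusted p = 0.00690). The proliferation genes given above moved with it, and their part was not tested. Myc, another gene with many inputs, fell in footprints from 158 and 173 to 90.6 and 93.7 FPKM (log2 -0.85 ± 0.11, adjusted p = 0.0159) and did not pass in RNA-seq (adjusted p = 0.0939). This footprint call was lost without oligodendrocyte replicate 2 and without the variance trend.

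The genes listed as Notch targets did not move as one. Hes1, a repressor that Notch induces, fell from 30.1 and 27.0 FPKM to 6.48 and 2.47 in RNA-seq (log2 -2.80 ± 0.46, adjusted p = 0.00806) and from 61.0 and 51.1 to 7.05 and 3.18 in footprints (log2 -3.53 ± 0.46, adjusted p = 0.0153). Hes6, a gene of the same family that the list counts as a target, fell in RNA-seq (log2 -1.07 ± 0.23, adjusted p = 0.0191) and in footprints (log2 -0.83 ± 0.14, adjusted p = 0.0241). Whether Notch induces Hes6 in these cells was not tested. Hes5 had 42.5 and 16.7 FPKM in OPC RNA-seq and 66.0 and 49.7 in oligodendrocytes (adjusted p = 0.107, and 0.0102 with the replicate block), and its footprints overlapped, at 60.3 and 12.1 against 68.2 and 11.6 FPKM.

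Hey1 had 23.3 and 18.02 FPKM in OPC RNA-seq and 22.2 and 18.2 in oligodendrocytes (log2 -0.03 ± 0.23, adjusted p = 0.929). Nrarp RNA overlapped between groups (adjusted p = 0.315), and its footprints had 60.2 and 24.5 FPKM in OPCs and 24.5 and 8.98 in oligodendrocytes (adjusted p = 0.237, and 0.0376 with the replicate block). Hey2 and Heyl were low, at most 5.75 and 5.82 FPKM, with oligodendrocyte footprint replicate 2 listed at 0 for both. Hes7 had 2396 and 3162 FPKM in OPC RNA-seq and 3605 and 0 in oligodendrocytes, was listed at 0 in all footprint libraries and was not read further.

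The BMP targets of the Id family, inhibitors of bHLH factors, also differed in direction. Id1 rose in RNA-seq from 11.5 and 8.61 to 30.6 and 20.3 FPKM (log2 1.31 ± 0.29, adjusted p = 0.0197), and Id2 from 22.3 and 35.5 to 65.8 and 56.5 FPKM (log2 1.11 ± 0.26, adjusted p = 0.0234), while neither passed in footprints (adjusted p = 0.148 and 0.337). Id3, the most abundant of the 3, fell from 285 and 221 to 161 and 113 FPKM in RNA-seq (log2 -0.90 ± 0.23, adjusted p = 0.0323, a call lost with median-ratio scaling, without the minimum and without the variance trend) and from 1498 and 1227 to 742 and 475 FPKM in footprints (log2 -1.19 ± 0.27, adjusted p = 0.0468).

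**Figure D4:**
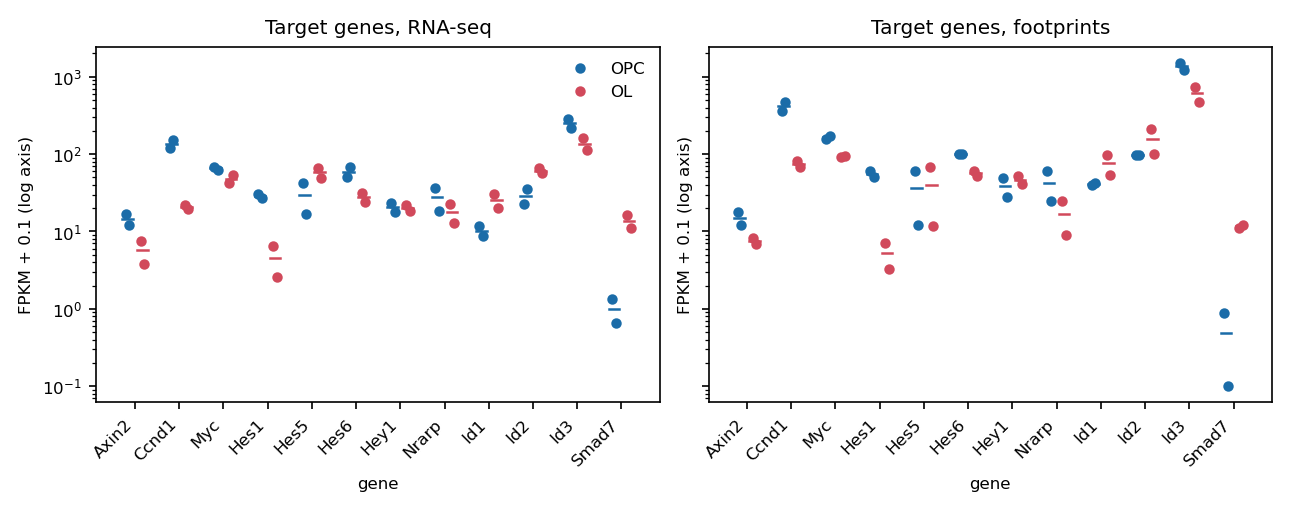
Levels of 12 genes listed as targets, in RNA-seq (left) and footprints (right), as FPKM + 0.1 on a log axis. Each culture has a point, and a bar marks the mean of 2. Ccnd1 and Hes1 fall in both panels, Id1 and Id2 rise in RNA-seq, Id3 falls in both, and the OPC and OL points of Hey1 overlap.

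Among the other components, those with the largest changes that passed in both kinds of library are given by log2 difference in RNA-seq and then in footprints. In the Wnt pathway Prickle1, of planar cell polarity, rose by far the most (4.71 ± 0.42 and 5.54 ± 0.34), from 1.58 and 1.51 FPKM to 64.8 and 28.5 in RNA-seq. Porcn, which acylates Wnt ligands for release, rose as well (2.02 ± 0.55 and 2.25 ± 0.45), and so did Dact3 (1.74 ± 0.38 and 1.57 ± 0.29). Its relative Dact1, an inhibitor that acts on Dishevelled, fell (-2.29 ± 0.25 and -2.06 ± 0.39), and so did Znrf3, which removes Frizzled receptors from the membrane (-2.25 ± 0.32 and -2.82 ± 0.61). Footprint calls of Porcn, Dact1 and Znrf3 missed the threshold with the replicate block (adjusted p = 0.0591, 0.0571 and 0.0892).

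In the Notch pathway Lfng, a glycosyltransferase that modifies the Notch receptor, fell from 118 and 98.5 FPKM to 13.9 and 14.6 in RNA-seq (-2.91 ± 0.17 and -3.17 ± 0.37). Cntn1, a contactin described as a Notch ligand, rose from 105 and 90.8 to 326 and 354 FPKM (1.80 ± 0.15 and 2.13 ± 0.13), and Dtx3 rose (1.13 ± 0.20 and 1.14 ± 0.20, the latter with adjusted p = 0.0564 under the block). In the Hedgehog list Kif3a, a motor of the primary cilium, rose (0.86 ± 0.20 and 1.12 ± 0.18).

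In the BMP/TGF-beta list Fstl1, a follistatin-like protein that binds BMPs, fell the most, from 39.7 and 33.7 to 4.39 and 2.94 FPKM in RNA-seq (-3.31 ± 0.28 and -3.38 ± 0.50). Tgif2, a repressor that binds SMADs, fell (-2.06 ± 0.23 and -2.83 ± 0.58), and Zeb2, a SMAD-binding repressor needed for myelination, rose (1.66 ± 0.20 and 2.30 ± 0.22). The integrin subunits that release TGF-beta from its latent form differed in direction, with Itgb8 higher (1.10 ± 0.25 and 1.61 ± 0.26) and Itgav lower (-1.17 ± 0.15 and -0.98 ± 0.12).

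Ribosome density (RD), the footprint FPKM of the coding sequence over the RNA FPKM of the transcript, was compared between cell types as an interaction over all 8 libraries. None of the 40 members tested passed (limma, 0 at an unadjusted p under 0.05, and 0 with the ratio per culture as the unit), and of all 8056 transcripts 0.0124% did. The median log2 difference was 0.12 over the members and 0.10 over all transcripts, and the latter changed sign with median-ratio scaling (-0.06). For Fzd9 the RD difference was 0.43 ± 0.43 and for Smo 0.16 ± 0.46, so that changes of that size were not detectable. In simulated data the RD fit recovered 0 of 200 transcripts at a log2 change of 1 and 94 of 200 at 2. Larger changes than those of Fzd9 and Smo could thus also go undetected. Without oligodendrocyte replicate 1, 3 members were called, 2 lower and 1 higher.

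Within each culture, in contrast, the members spanned much of the range of RD. Of the 36 with RD in all 4 cultures, 3 lay below the 10th percentile of all transcripts in every culture and 0 above the 90th, limits that were chosen after the values had been seen. The share of all transcripts that stay beyond these limits in every culture was not computed, so the count is not read as an excess. The 3 were Dvl1, Ptch1 and Smo. Dvl1, a Dishevelled, had RD of 0.303 and 0.160 in OPCs and 0.293 and 0.138 in oligodendrocytes. Its RNA, at 25.4 and 25.7 FPKM against 19.7 and 23.7, was the highest of the Dishevelled and Axin members, and its footprints, at 7.702 and 4.112 against 5.76 and 3.26 FPKM, the lowest. Its exons share 36 bases with a gene of the opposite strand.

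Smo had RD of 0.247 and 0.305 in OPCs and 0.344 and 0.271 in oligodendrocytes, and Ptch1 of 0.397 and 0.435 in OPCs and 0.497 and 0.0995 in oligodendrocytes. The median over all transcripts was 1.72 and 1.77 in the OPC cultures and 2.02 and 1.95 in those of oligodendrocytes. Both membrane proteins of the Hedgehog receptor system were thus among the transcripts with the fewest footprints for their RNA in every culture, at percentiles of 0.412 to 4.60. Footprints were cut with micrococcal nuclease, whose sequence specificity the paper names as a difficulty in placing ribosome sites. Its part in these ranks was not tested. At the other end Tgfb2 had RD of 3.57 to 7.49 and Sfrp1 of 3.48 to 7.41, both secreted proteins. Of the Frizzled receptors Fzd2 was the highest in all 4 cultures but OPC replicate 2, where Fzd7 lay above it, with RD of 2.09 to 2.90.

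**Figure D5:**
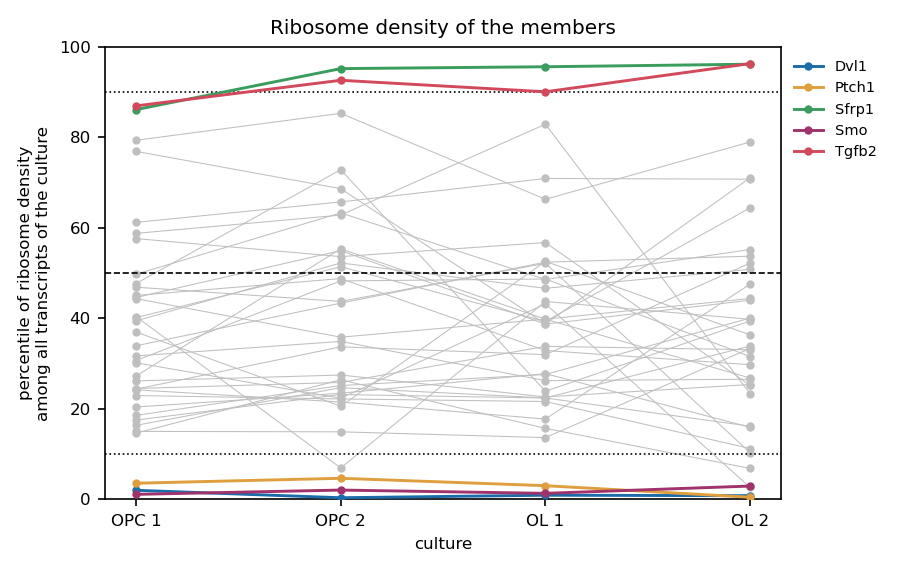
Percentile of ribosome density among all transcripts of a culture (y axis) for the 36 members with a value in all 4 cultures (x axis), with a line joining the values of a gene, the dashed line at the median and dotted lines at the 10th and 90th percentiles. Dvl1, Ptch1 and Smo stay under 4.61 in every culture, and Sfrp1 and Tgfb2 above 86.1.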

How the data were processed

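Ribosome footprints and total RNA of 2 OPC and 2 oligodendrocyte cultures were grouped by cell type and kind of library as in their labels. The authors deposited FPKM values, on the transcript for RNA-seq and on the coding sequence for footprints. fastx_clipper took off the adapter and dropped reads shorter than 18 nucleotides. The rest were aligned to GRCm38/mm10 with HISAT2 2.1.0 (per the submitters' processing notes) and tabulated by StringTie 1.3.5 and ballgown on canonical coding transcripts of Gencode vM9. No use of strand is stated, so overlapping genes cannot be separated. Libraries were kept apart.

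FPKM were used as deposited. After adding 0.1 and taking log2, cell types were compared by 2-sided moderated tests in limma (version 3.58.1, R 4.3.3; eBayes with trend). A transcript entered if the 4 libraries of a kind averaged 1 FPKM or more, and Benjamini-Hochberg adjustment covered every transcript that did, with calls under 0.05. RD was tested as the interaction over 8 libraries. Members, gene lists and tests were chosen with earlier results of these data known. Called members are given with values per library, and of the other pathway genes all targets and, per pathway, up to 3 rises and 3 falls that passed in both kinds. Members were matched to Gencode vM21, where all 65 kept their symbol, and promoters to RefSeq (GRCm38.p6).

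Same-numbered cultures are pairs by the study's methods, since oligodendrocytes were derived from the corresponding OPC replicates. Their deviations from the group means correlated at 0.108 over 8346 transcripts in RNA-seq and 0.0860 over 8342 in footprints. With 2 cultures per group, an exact permutation test cannot go below p = 0.333.

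Depth was estimated from the step between low FPKM values that corresponds to 1 aligned base. The limma fits were tested on simulated data with 200 changed transcripts, drawn from those with means of at least 5 FPKM in both kinds. At log2 changes of 1, 2 and 3 the RNA-seq fit recovered 71, 191 and 200 of them, the footprint fit 1, 134 and 183, and the RD fit 0, 94 and 152. Calls among unchanged transcripts numbered 7, 14 and 8, then 0, 6 and 16, and 0, 3 and 10. The simulated spread was averaged over transcripts of similar level. Recovery at lower levels, or with a library that stands apart, was not tested. Alternatives were other pseudocounts (1 and 0.01), no minimum or a minimum of 5 FPKM, median-ratio scaling, no variance trend, a replicate block, RD per culture and each library left out.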

Additional observations from a re-analysis of the deposited data

How the results depend on the processing

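Over the settings that kept all libraries, between 11 and 18 members were called in RNA-seq. With the replicate block, which pairs same-numbered cultures, 18 members were called in RNA-seq, 6 in footprints and 0 in RD, and 45 and 20 of the other pathway genes. It changed no other call among the members than those given in the report. Without the variance trend 3 members and 14 of the other pathway genes were called in footprints, against 7 and 27. With each library left out in turn the members called ranged from 1 to 15 in RNA-seq, from 0 to 14 in footprints and from 0 to 3 in RD, and the other pathway genes from 3 to 30 in RNA-seq and from 0 to 46 in footprints. In RNA-seq and footprints the lowest counts came without an OPC library and the highest without oligodendrocyte replicate 1. Median-ratio scaling took Axin2, Bmp7, Gli3, Sfrp1 and Wnt7a out of the RNA-seq calls. The one call against a reported direction was that of Hey2 in footprints, at 2.85 on the log2 scale (limma adjusted p = 0.0376) without oligodendrocyte footprint replicate 2, where it is listed at 0, and at -3.01 without replicate 1. The cause of these differences was not tested, beyond the smaller number of samples when a library is left out. Over single genes and settings, 1221 comparisons kept their side of the threshold, 211 lost a call and 28 gained one. FPKM hold no counts, so no count model could be run, and members with means under 1 FPKM were not tested.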
